A study of Mus musculus with 2 samples.

Results

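The genes described here are the 4 surfactant proteins and 5 genes of the lamellar body measured in single cells of the newborn mouse lung, 9 of the 27254 genes counted. They were chosen by name: Sftpa1, Sftpb, Sftpc and Sftpd, and Abca3, Lamp3, Napsa, Slc34a2 and Lpcat1. All 9 were counted in both batches and all 9 passed the filter on low counts.

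Pulmonary surfactant is a film of phospholipid and protein that lowers surface tension in the air spaces and keeps them from collapsing at expiration. It is made by alveolar type 2 (AT2) cells, which store it in lamellar bodies, lysosome-related organelles, and secrete it into the alveolar lining fluid. SFTPB and SFTPC are small hydrophobic proteins that act in the film itself, whereas SFTPA1 and SFTPD are collectins, lectins of innate defence that bind microbes. ABCA3 pumps phospholipid into the lamellar body, LAMP3 is a glycoprotein of its membrane, NAPSA is a protease that helps cut the SFTPB precursor, SLC34A2 carries phosphate and LPCAT1 makes the saturated phosphatidylcholine of surfactant. Alveolar type 1 (AT1) cells are the flat cells of gas exchange.

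Whole lungs of wild-type C57BL/6J mice at postnatal day 1 (PND1) were dissociated with enzymes and captured by Drop-seq, in which transcript ends are tagged with a cell barcode and a unique molecular identifier (UMI) and different UMIs are counted. Each batch was 1 library from 1 female mouse, Batch 1 and Batch 2, and no mutant, treatment or other age was compared. After removal of cells with over 10% mitochondrial UMIs, Batch 1 held 2388 cells with 4432553 UMIs and Batch 2 held 5615 cells with 18232639 UMIs. The batches shared 0 barcodes, and the median cell had 1386.5 UMIs in Batch 1 and 2014 in Batch 2.

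Cells were clustered without the 9 members and without the other genes of the lists below, and clusters were named from other marker genes. AT2-like cells numbered 186 in Batch 1 and 706 in Batch 2, AT1-like cells 107 and 295, and cells with markers of both, the AT1/AT2 class, 42 and 317. Club-like cells, secretory cells of the airway, numbered 4 and 36, and ciliated-like airway cells 9 and 83. The background was taken from 1994 and 4043 non-epithelial cells of endothelial, mesenchymal, immune and erythroid classes. The AT1-like cells of Batch 1 also carried blood endothelial markers, at 32.7 UMIs per 10000 in sum against 4.11 in Batch 2 and 37.0 and 47.4 in non-epithelial cells, and the part of this in their values was not tested. In the part of the authors' cell list used here, which covers Batch 1 cells alone, 150 of 161 AT2-like cells were listed as AT2, as were 64 of 91 AT1-like cells as AT1 and 29 of 36 AT1/AT2 cells as AT1/AT2.

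In the GENCODE annotation of GRCm38, the build named mm10, Sftpa1 lies at chr14:41131782-41136452 on the plus strand and Sftpd at chr14:41172214-41185149 on the minus strand, with 35761 bases between them. Sftpc, on the minus strand at chr14:70520949-70524081, lies farther along the same chromosome. Sftpb lies at chr6:72304610-72314371, Slc34a2 at chr5:53038081-53071664, Lpcat1 at chr13:73467197-73516422, Napsa at chr7:44572380-44586862 and Abca3 at chr17:24351950-24410201, all on the plus strand, and Lamp3 at chr16:19653378-19706375 on the minus strand. Exons of Napsa overlap the antisense gene Gm15396 and those of Abca3 overlap D330041H03Rik on the opposite strand, and reads of such partners cannot be told apart if counting did not use strand.

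RefSeq promoters of GRCm38.p6, from 250 bases before to 50 bases after the start of transcription, were matched for 6 of the 9 genes: Sftpa1, Sftpb, Abca3, Lamp3, Slc34a2 and Lpcat1. Both strands were searched for CTCAAG, a core of sites of the lung epithelial factor NKX2-1, for the forkhead letters TGTTTNC, for the C/EBP letters TTNNGCAA and for TATAAA. The 4 promoters that held any of these letters are shown, with the matched letters in capitals. Abca3 and Lpcat1, whose promoters held none and are not shown, were also highest in AT2-like cells.
Sftpa1: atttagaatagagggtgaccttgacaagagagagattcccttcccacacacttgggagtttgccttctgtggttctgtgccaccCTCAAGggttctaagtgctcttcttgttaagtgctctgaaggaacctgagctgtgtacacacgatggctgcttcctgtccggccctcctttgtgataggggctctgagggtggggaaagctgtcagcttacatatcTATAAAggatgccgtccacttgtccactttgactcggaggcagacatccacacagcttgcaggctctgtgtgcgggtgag
Sftpb: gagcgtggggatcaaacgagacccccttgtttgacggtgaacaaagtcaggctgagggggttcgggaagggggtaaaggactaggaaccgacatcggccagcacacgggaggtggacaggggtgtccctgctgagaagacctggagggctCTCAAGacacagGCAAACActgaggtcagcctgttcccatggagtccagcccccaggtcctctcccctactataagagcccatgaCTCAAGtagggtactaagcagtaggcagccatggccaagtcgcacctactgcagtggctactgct
Lamp3: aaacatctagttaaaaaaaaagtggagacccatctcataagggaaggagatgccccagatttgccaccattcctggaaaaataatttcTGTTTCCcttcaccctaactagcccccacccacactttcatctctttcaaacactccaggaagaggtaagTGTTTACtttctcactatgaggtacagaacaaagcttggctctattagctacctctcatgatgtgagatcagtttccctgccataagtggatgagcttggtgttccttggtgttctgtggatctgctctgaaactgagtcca
Slc34a2: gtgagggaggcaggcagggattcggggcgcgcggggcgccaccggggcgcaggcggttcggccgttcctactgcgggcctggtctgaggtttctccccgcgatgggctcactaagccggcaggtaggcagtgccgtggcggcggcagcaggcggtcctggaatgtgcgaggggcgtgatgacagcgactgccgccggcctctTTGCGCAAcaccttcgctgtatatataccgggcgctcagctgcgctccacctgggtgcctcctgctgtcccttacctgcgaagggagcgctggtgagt
The Sftpa1 promoter is chr14:41131538-41131837 on the plus strand, with CTCAAG starting 166 bases and TATAAA 30 bases before the transcription start. The Sftpb promoter is chr6:72304360-72304659 on the plus strand and holds CTCAAG at 100 and 15 bases before the start, with the forkhead letters on the other strand at 88. The Lamp3 promoter is chr16:19706316-19706615 on the minus strand, with the forkhead letters at 162 and 92 bases before the start. The Slc34a2 promoter is chr5:53049103-53049402 on the plus strand, with the C/EBP letters at 48; this RefSeq start lies inside the gene as GENCODE draws it. The Abca3 and Lpcat1 windows held none of the 4 motifs. Of 32851 mouse promoters of the same length, 15.9% held CTCAAG, 20.5% the forkhead letters, 10.8% the C/EBP letters and 13.6% TATAAA, so a match is a description of the letters and not a site.

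All 9 genes were highest in AT2-like cells, with the exception of Sftpd in Batch 1, which was level with club-like cells. Levels are given as UMIs per 10000 UMIs of the class, a scale of transcript 3′ ends that was not divided by length. Sftpc reached 1221 in Batch 1 and 736 in Batch 2, or 979 ± 343 (SD, n = 2 batches). It alone made up 79.8% and 74.5% of the UMIs of the 9 genes in AT2-like cells, and the 9 together 15.3% and 9.88% of all UMIs of these cells. The batches therefore differed in the summed share, and Sftpc had the largest absolute difference in level between them, 1221 against 736.

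The collectin Sftpa1 was at 98.5 and 68.6 UMIs per 10000 in AT2-like cells, 83.6 ± 21.2 (SD, n = 2). Sftpb was at 69.2 and 50.4, 59.8 ± 13.3, and Sftpd at 42.8 and 35.4, 39.1 ± 5.24. Each of the surfactant proteins was lower in Batch 2. Of the lamellar body genes, the phosphate carrier Slc34a2 was at 45.9 and 51.6, 48.8 ± 4.03, and the protease Napsa at 24.7 and 24.0, 24.3 ± 0.459. Lpcat1 was at 15.2 and 14.9, 15.1 ± 0.243. These 3 levels were close between the batches. Lamp3 was at 6.75 and 3.94, 5.35 ± 1.99, and the phospholipid pump Abca3 at 5.61 and 3.13, 4.37 ± 1.75, the lowest of the 9 in both batches. With 1 library per mouse, a difference between the batches cannot be told apart from one between the mice.

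At least 1 Sftpc UMI was found in 100% of AT2-like cells of Batch 1 and 99.9% of Batch 2. Sftpa1, Sftpb and Slc34a2 were each detected in 98.4% to 99.7% in both batches, Sftpd in 96.2% and 98.2%, Napsa in 95.7% and 98.2% and Lpcat1 in 93.0% and 93.9%. Lamp3 was found in 74.7% and 66.7% and Abca3 in 70.4% and 62.5%, the 2 genes of lowest level. All 9 genes were detected together in 100 of 186 AT2-like cells (53.8%) and 306 of 706 (43.3%), and all 4 surfactant proteins in 95.7% and 97.6%. These shares move with the depth of the cells, and once each cell was thinned to 600 UMIs, all 4 surfactant proteins were found in 74.7% and 72.1% of AT2-like cells.

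**Figure D1:**
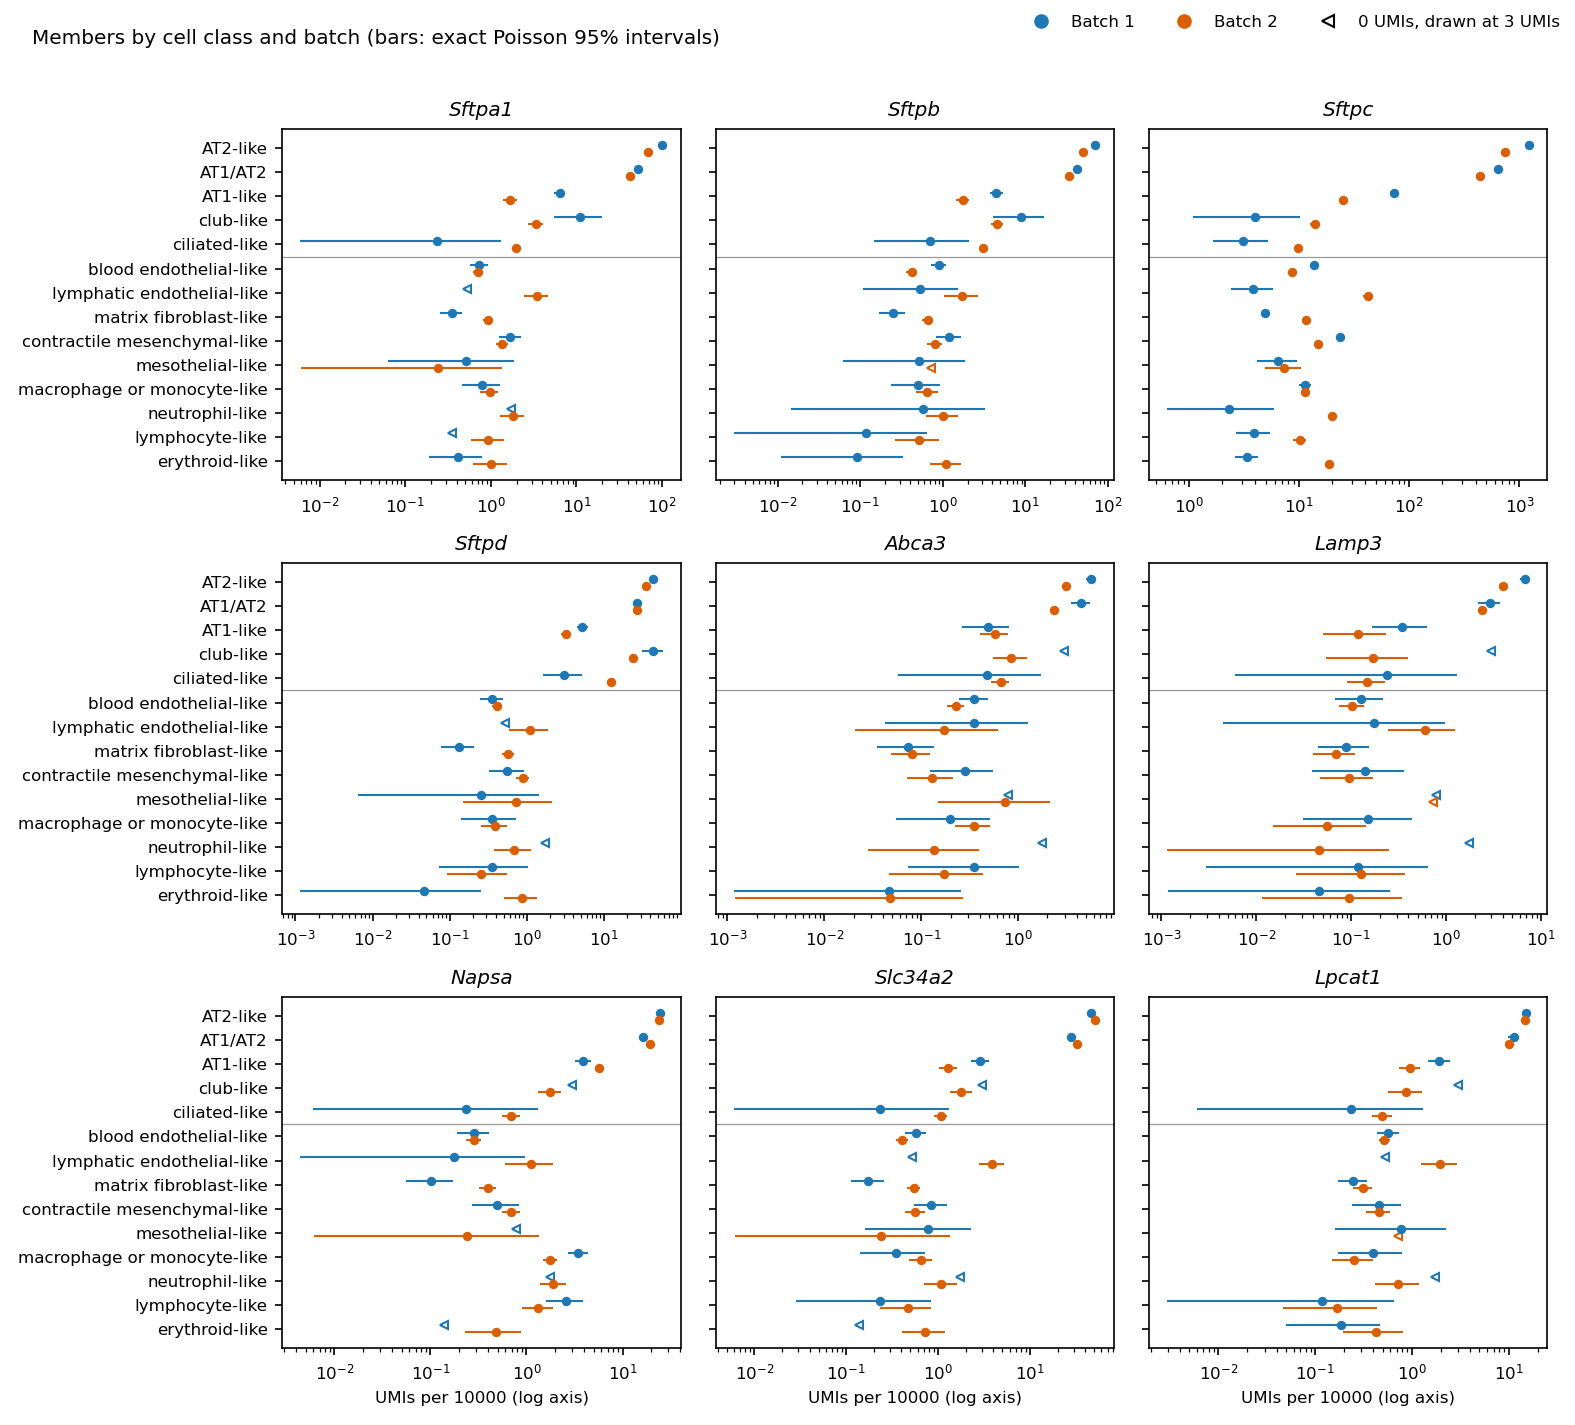
UMIs per 10000 of each of the 9 genes (log axis) in 14 cell classes, with Batch 1 in blue, Batch 2 in orange and bars for exact Poisson 95% intervals, which cover counting error only; open triangles mark classes with 0 UMIs, drawn at 3 UMIs. Each gene is highest in AT2-like cells, with the AT1/AT2 class next, except for Sftpd, which is at 42.9 in Batch 1 club-like cells against 42.8 in AT2-like cells.

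Most UMIs of the 9 genes came from AT2-like and AT1/AT2 cells. For Sftpc, 74.3% of the UMIs in Batch 1 and 65.6% in Batch 2 were in AT2-like cells, with 16.3% and 27.2% in AT1/AT2 cells. Sftpd was the least confined surfactant protein, with 69.4% and 54.0% in AT2-like cells and 7.71% in ciliated-like cells of Batch 2. Abca3 was the most spread of the 9, with 59.6% and 52.3% in AT2-like cells and 14.7% and 8.77% in non-epithelial cells.

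Non-epithelial cells held all 9 transcripts at a low level, which served as the background. Sftpc was at 9.39 UMIs per 10000 in Batch 1 and 11.3 in Batch 2, and at least 1 UMI was found in 47.5% and 80.1% of these cells. At 600 UMIs per cell the shares were 24.2% and 44.9%, and 17.3% and 54.8% had at least 2 UMIs. Detection of Sftpc alone was thus common in cells of every lineage, at median depths of 1301.5 and 1743 UMIs in non-epithelial cells against 2121.5 and 3662 in AT2-like cells. The other 8 genes were at 0.0935 to 0.925 UMIs per 10000 in the non-epithelial cells.

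The non-epithelial Sftpc level was uneven among cells and classes. In Batch 1, the 20 cells with most Sftpc, about 1 in 100, held 54.2% of the non-epithelial Sftpc UMIs, and in Batch 2 the top 40 cells held 21.2%. Over the 8 non-epithelial classes with at least 10 cells in Batch 1, Sftpc ran from 3.35 in erythroid-like to 23.2 in contractile mesenchymal-like cells, where 2 of 232 cells held 424 of 661 UMIs and the level without them was 8.47; the 8 neutrophil-like cells of Batch 1 were at 2.33 from 4 UMIs. In Batch 2 it ran from 7.24 in mesothelial-like to 42.0 in lymphatic endothelial-like cells, where 1 cell held 432 of 489 UMIs and the level without it was 5.62. In Batch 2 the level was 21.3 UMIs per 10000 in non-epithelial cells under 1000 UMIs and 8.54 in those of at least 5000, while the mean Sftpc UMIs in a cell were 1.83 and 7.65. In Batch 1 the same bins held 7.21 and 15.6 UMIs per 10000, the opposite order. The levels are pooled over the cells of a bin, 40 cells in the upper bin of Batch 1. The part of the few cells with most Sftpc in this order was not tested.

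Over the non-epithelial level of the same batch, AT2-like cells were 164-fold and 74.2-fold higher in Sftpa1, 128-fold and 85.4-fold in Sftpb, 130-fold and 65.3-fold in Sftpc and 172-fold and 66.4-fold in Sftpd. Slc34a2 was 127-fold and 94.7-fold higher, Lamp3 63.6-fold and 42.2-fold, Napsa 54.6-fold and 43.6-fold, Lpcat1 41.6-fold and 33.4-fold and Abca3 28.9-fold and 17.3-fold. The surfactant proteins and Slc34a2 thus had the largest ratios in both batches and Abca3 the smallest. Single cells separated almost fully on Sftpc: 185 of 186 AT2-like cells and 705 of 706 lay above the 99th percentile of non-epithelial cells, at 46.5 and 72.0 UMIs per 10000. The median AT2-like cell was at 1303 and 810.

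**Figure D2:**
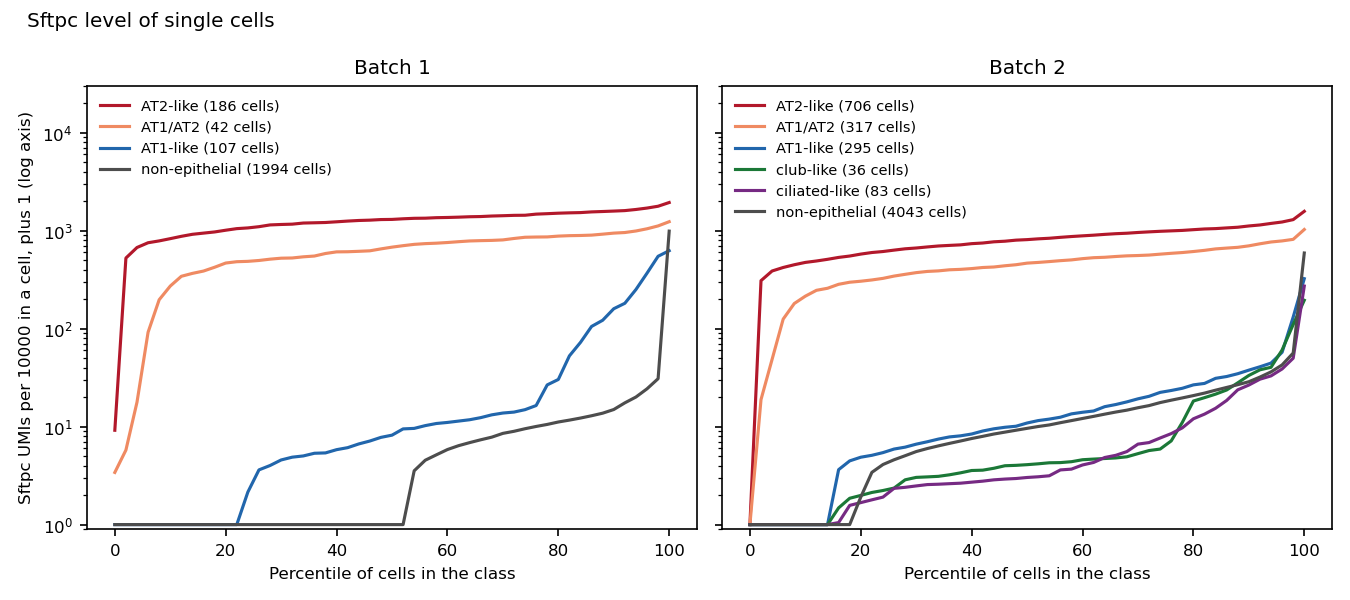
Sftpc UMIs per 10000 in single cells (log axis, plus 1) against the percentile of cells within each class, 1 panel per batch; classes with under 10 cells in Batch 1 are not drawn there. The AT2-like curves lie highest, at 829 and 474 for the 10th percentile of cells, the AT1/AT2 curves lie below them, and the AT1-like and non-epithelial curves start at 0, with medians of 7.18 and 0 in Batch 1 and 9.89 and 8.60 in Batch 2.

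In the edgeR quasi-likelihood fit of UMI sums per class and batch, 29.9% of the 8330 genes tested differed between AT2-like cells and the mean of the non-epithelial classes, 22.9% higher and 6.97% lower in AT2-like cells, and the median gene differed by a log2 fold change of 0.21. All 9 members were higher. The log2 fold change was 7.04 ± 0.31 (SE) for Sftpa1, with an adjusted p of 1.07e-15, and 6.88 ± 0.36 for Sftpc, with 1.57e-14. Sftpb was higher by 7.03 ± 0.28, Sftpd by 6.88 ± 0.27, Slc34a2 by 6.83 ± 0.31, Lamp3 by 6.50 ± 0.25, Napsa by 5.96 ± 0.28, Lpcat1 by 5.65 ± 0.25 and Abca3 by 4.87 ± 0.25. The median of the 9 was 6.83. Each was higher in both batches. The comparisons of AT2-like, AT1-like and ciliated-like cells below share non-epithelial sums.

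The partners of the surfactant system were examined by list, to be read against the 22.9% of all genes that were higher. Of 16 genes of lamellar body trafficking and protein processing tested, 10 were higher in AT2-like cells than in non-epithelial classes and 0 lower, with a median log2 fold change of 1.11. They were led by Ctsh, a cathepsin that trims the surfactant protein precursors, at 5.51, the phospholipid flippase Atp8a1 at 4.83 and the secretory GTPase Rab27a at 3.75. Of 23 genes of surfactant phospholipid synthesis, 20 were higher and 0 lower, with a median of 2.91. Scd1, a fatty acid desaturase, was at 5.97 and fatty acid synthase Fasn at 4.37. Of 7 genes of surfactant turnover, 2 were higher, a share near that of all genes: the phospholipase Pla2g1b at 7.86 and Prdx6, a peroxiredoxin with phospholipase activity, at 2.74. Of 13 regulators, 8 were higher, led by the transcription factors Klf5 at 6.77, Foxa2 at 6.75 and Elf5 at 6.71.

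The AT1/AT2 class held all 9 transcripts between the AT1-like and AT2-like levels. Sftpc was at 638 UMIs per 10000 in Batch 1 and 440 in Batch 2, or 52.2% and 59.8% of the AT2-like level. Sftpa1 was at 52.8 and 42.1, Sftpb at 42.6 and 33.6, Sftpd at 26.8 and 27.1, Slc34a2 at 28.1 and 32.6, Napsa at 16.5 and 19.1, Lpcat1 at 11.3 and 10.2, Abca3 at 4.40 and 2.32 and Lamp3 at 2.87 and 2.39. Relative to the AT2-like level, the 9 genes ran from 42.5% for Lamp3 to 78.5% for Abca3 in Batch 1, and from 59.8% for Sftpc to 79.6% for Napsa in Batch 2. Set against the arithmetic mean of the AT1-like and AT2-like levels, the class was at 0.986 and 1.16 times that mean for Sftpc. Over all 9 genes it ran from 0.808 times for Lamp3 to 1.45 for Abca3 in Batch 1. In Batch 2 it ran from 1.16 times for Sftpc to 1.40 for Sftpd. The AT1 markers in sum were at 1.03 and 0.805 times that mean and the AT2 markers at 1.14 and 1.22 times. Scrublet called 0 and 5 of these cells as doublets, and their median depth was 4201.5 and 5540 UMIs, above that of AT1-like cells at 1973 and 1958. Whether doublets had a part in the class was not tested further.

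Against the mean of the AT1-like and AT2-like log2 levels, edgeR called 3 genes (0.036%), all of them higher in the AT1/AT2 class, and 370 had an unadjusted p under 0.05. The 3 were Areg at a log2 fold change of 2.83, Nupr1 at 2.30 and the regulator Tfcp2l1 at 1.81 (adjusted p 0.0217); Areg and Nupr1 were named after their values were seen. None of the 9 members was called by edgeR or by DESeq2, although 8 had an unadjusted edgeR p under 0.05, with log2 fold changes from 0.71 for Napsa to 1.60 for Slc34a2 and adjusted p from 0.101 to 1. This depended on the fit. With only the 3 classes compared, edgeR called 106 genes, and all 9 members were higher in the AT1/AT2 class, with adjusted p from 1.9e-07 to 0.0115. With no gene filter edgeR called 64, and DESeq2 called 1. Where the AT1-like and AT2-like levels differ, their arithmetic mean lies above the mean of their log2 levels. A class at the arithmetic mean would thus be higher in this comparison. The members were not all at that mean, as given above, and the part of the choice of mean in their fold changes was not tested. None of the 16 trafficking, 23 phospholipid and 7 turnover genes was called by edgeR (1, 7 and 2 at an unadjusted p under 0.05), and Tfcp2l1 was the only one of 13 regulators.

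AT1-like cells held the 9 transcripts above the non-epithelial level, far below AT2-like cells. Sftpc was at 72.4 UMIs per 10000 in Batch 1 and 25.2 in Batch 2. Napsa was at 3.92 and 5.75, Sftpd at 5.26 and 3.22, Sftpa1 at 6.36 and 1.68, Sftpb at 4.47 and 1.75, Slc34a2 at 2.89 and 1.29, Lpcat1 at 1.93 and 0.955, Abca3 at 0.481 and 0.573 and Lamp3 at 0.344 and 0.118. Napsa and Abca3 were the genes whose level was not lower in Batch 2. Napsa was detected in 40.2% and 52.5% of AT1-like cells against 4.11% and 10.0% of non-epithelial cells, and Sftpd in 30.8% and 30.8% against 2.51% and 9.87%. At 600 UMIs per cell, Napsa was found in 18.7% and 23.4% of AT1-like against 2.36% and 3.51% of non-epithelial cells, and Sftpd in 14.0% and 12.5% against 1.05% and 3.61%.

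In edgeR, 20.9% of the genes tested differed, 17.1% higher and 3.79% lower in AT1-like cells than in non-epithelial classes, and 8 of the 9 members were among them. Sftpd was higher by a log2 fold change of 3.25 ± 0.33 (adjusted p 1.65e-08) and Napsa by 3.22 ± 0.33 (1.97e-08). Sftpb was at 2.30 (4.26e-05), Sftpa1 at 2.18 (0.000258), Sftpc at 2.13 (0.000351), Slc34a2 at 1.86 (0.00253), Lpcat1 at 1.81 (0.000355) and Abca3 at 1.58 (0.00222). Lamp3 was at 1.44 with an adjusted p of 0.141. With DESeq2 the adjusted p of Slc34a2 was 0.0507.

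A few AT1-like cells held most of their Sftpc. Above the 99th percentile of non-epithelial cells were 21 of 107 AT1-like cells in Batch 1 and 8 of 295 in Batch 2, and they held 93.6% and 55.6% of the class's Sftpc UMIs. Non-epithelial cells above the same limit numbered 20 and 41. A fit without the cells above it on both sides, chosen after their values were seen, still called Napsa at 3.39 ± 0.39 (edgeR adjusted p 1.56e-07), Sftpd at 2.69 ± 0.36 (1.99e-06), Abca3 at 1.53 ± 0.41 (0.00708) and Lpcat1 at 1.28 ± 0.33 (0.00618). Sftpb at 1.74 (adjusted p 0.0747), Slc34a2 at 1.04 (0.103) and Sftpa1 at 0.85 (0.159) were not called in that fit. Sftpc was at 0.45 (0.315), a value the rule acts on directly, and it acts also on transcripts that go with Sftpc from cell to cell. In the cells that remained, Napsa in AT1-like cells was at 6.09 times the non-epithelial level in Batch 1 and 11.0 times in Batch 2, Sftpd at 11.6 and 5.20 times and Abca3 at 2.72 and 3.13 times, from 8 and 36 Abca3 UMIs. Sftpa1 was at 1.66 and 1.50 times and Slc34a2 at 3.33 and 1.60 times.

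**Figure D3:**
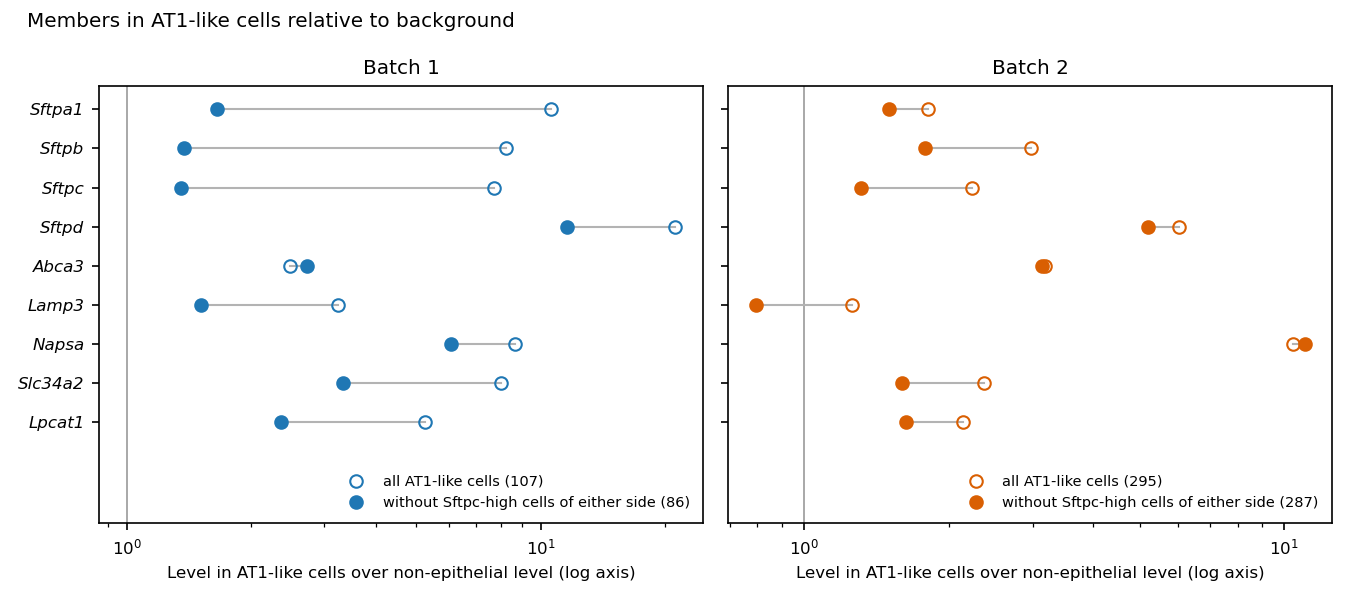
Level of each gene in AT1-like cells over its non-epithelial level (log axis) in each batch, with open circles for all cells and filled circles without the AT1-like and non-epithelial cells above the 99th percentile of non-epithelial Sftpc (86 of 107 and 287 of 295 AT1-like cells kept); the grey line at 1 marks equal levels. Among the filled circles, Sftpd and Napsa are at 5.20 times or more in both batches, and the other members lie between 0.793 and 3.33 times.

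Against 17.1% of all genes higher and 3.79% lower, 6 of 16 trafficking genes were higher in AT1-like cells than in non-epithelial classes and 1 was lower: Ctsh was at 3.90, Atp8a1 at 3.20 and the flippase Atp11a at 2.11, and the cathepsin Ctsb at −1.33. Of 23 phospholipid genes, 10 were higher, among them the sterol enzyme Sqle at 3.94 and Chpt1, a choline phosphotransferase, at 3.42. Of 7 turnover genes, Pla2g1b and Prdx6 were higher, both at 3.87, a count of 2 that is close to the share of all genes. Of 13 regulators, 5 were higher, led by Klf5 at 7.68, Foxa2 at 6.77 and the receptor Erbb3 at 6.46, and Stat3 was lower at −1.01. Nkx2-1, the lung epithelial factor named above, was at 6.28 in AT1-like and 6.44 in AT2-like cells, and between the 2 classes it differed by 0.16 with an adjusted p of 0.855.

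Set directly against AT1-like cells, 14.7% of the genes tested differed in edgeR, 7.43% higher and 7.29% lower in AT2-like cells, with a median log2 fold change of 0.04 over all genes, and all 9 members were higher. Lamp3 was at 5.07 ± 0.40 (adjusted p 1.19e-08), Sftpc at 4.75 ± 0.74 (4.45e-05) and Napsa, the smallest, at 2.74 ± 0.46 (0.000114). Slc34a2 was at 4.97, Sftpa1 at 4.85, Sftpb at 4.74, Lpcat1 at 3.85, Sftpd at 3.63 and Abca3 at 3.29. Without the replicate block, edgeR called 581 genes in place of 1226, and the 9 members kept their call. Against the 7.43% of all genes, 6 of 16 trafficking genes were higher, led by Rab27a at 5.28, Atp8a1 at 1.63 and Ctsh at 1.61. Of 23 phospholipid genes, 12 were higher, led by Scd1 at 5.60, the fatty acid binding protein Fabp5 at 5.38 and the acyl-CoA synthetase Acsl4 at 3.75, and the elongase Elovl5 was lower at −1.09. Pla2g1b was higher at 3.99 and Prdx6 lower at −1.13 of 7 turnover genes. Of 13 regulators, 4 were higher: Cebpa at 5.31, Elf5 at 4.81 and Tfcp2l1 at 4.52 led them.

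Sftpd was above the background in both airway classes, as it was in AT1-like cells. In club-like cells it was at 42.9 UMIs per 10000 in Batch 1 (exact Poisson 95% interval 31.0 to 57.8, 4 cells) and 23.9 in Batch 2 (22.2 to 25.7, 36 cells), and it was found in 4 of 4 and 35 of 36 cells. Sftpc was at 3.99 and 13.9 in the same cells, against a background of 9.39 and 11.3. These levels are pooled over cells. Single Batch 2 club-like cells had a median Sftpc of 3.09 and a maximum of 194, and the non-epithelial median was 8.60. Sftpa1 was at 11.0 and 3.37 and Sftpb at 8.97 and 4.58. Abca3, Lamp3, Napsa, Slc34a2 and Lpcat1 had 0 UMIs in the 4 club-like cells of Batch 1, where 3 UMIs correspond to 2.99 per 10000, and were at 0.842, 0.168, 1.75, 1.79 and 0.876 in Batch 2. Under 10 club-like cells in Batch 1 left these values without a test.

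Ciliated-like cells held Sftpd at 3.07 (1.64 to 5.25) and 12.2 UMIs per 10000 (11.7 to 12.8). Their Sftpc was at 3.07 and 9.72, below the non-epithelial level in both batches. Sftpb was at 0.709 and 3.04, Sftpa1 at 0.236 and 1.99, and the lamellar body genes at 0.146 to 1.07. The test took classes of at least 5 cells, since Batch 1 held 9 ciliated-like cells. In edgeR, 26.8% of 8656 genes differed, 21.1% higher and 5.73% lower than in non-epithelial classes, and 3 of the 9 members were: Sftpd at 3.96 ± 0.35 (adjusted p 3.02e-12), Abca3 at 1.85 (0.00021) and Sftpb at 1.80 (0.0011). With DESeq2 the adjusted p of Sftpb was 0.0783. Sftpc was at −0.96 with an adjusted p of 0.28. The Batch 2 cells were also split at the median of their share of club markers. The 41 cells above it held Sftpd at 14.6 and Sftpc at 4.10, and the other 42 held Sftpd at 7.02 and Sftpc at 22.2. Their median depths were 16043 and 4880.5 UMIs. These levels are pooled over cells: single Batch 2 ciliated-like cells had a median Sftpc of 2.03 and a maximum of 271. The part of single cells in the 22.2 was not tested.

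Against 21.1% of all genes higher in ciliated-like cells, 5 of 17 trafficking genes were higher, a share near it, led by the protease precursor Pgc at 7.71, Atp8a1 at 3.11 and Ctsh at 2.59. Of 23 phospholipid genes, 13 were higher, among them Sqle at 5.01 and Chpt1 at 3.47, and Fabp5 at −2.44 and the phosphatase Lpin1 at −2.01 were lower. Of 7 turnover genes, 3 were higher: Pla2g1b at 4.35, the phospholipase Pla2g4a at 4.18 and Prdx6 at 2.69. Of 14 regulators, 8 were higher, led by Foxa2 at 7.05, Foxa1 at 6.52 and Erbb3 at 6.20, and the glucocorticoid receptor Nr3c1 was lower at −1.30.

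**Figure D4:**
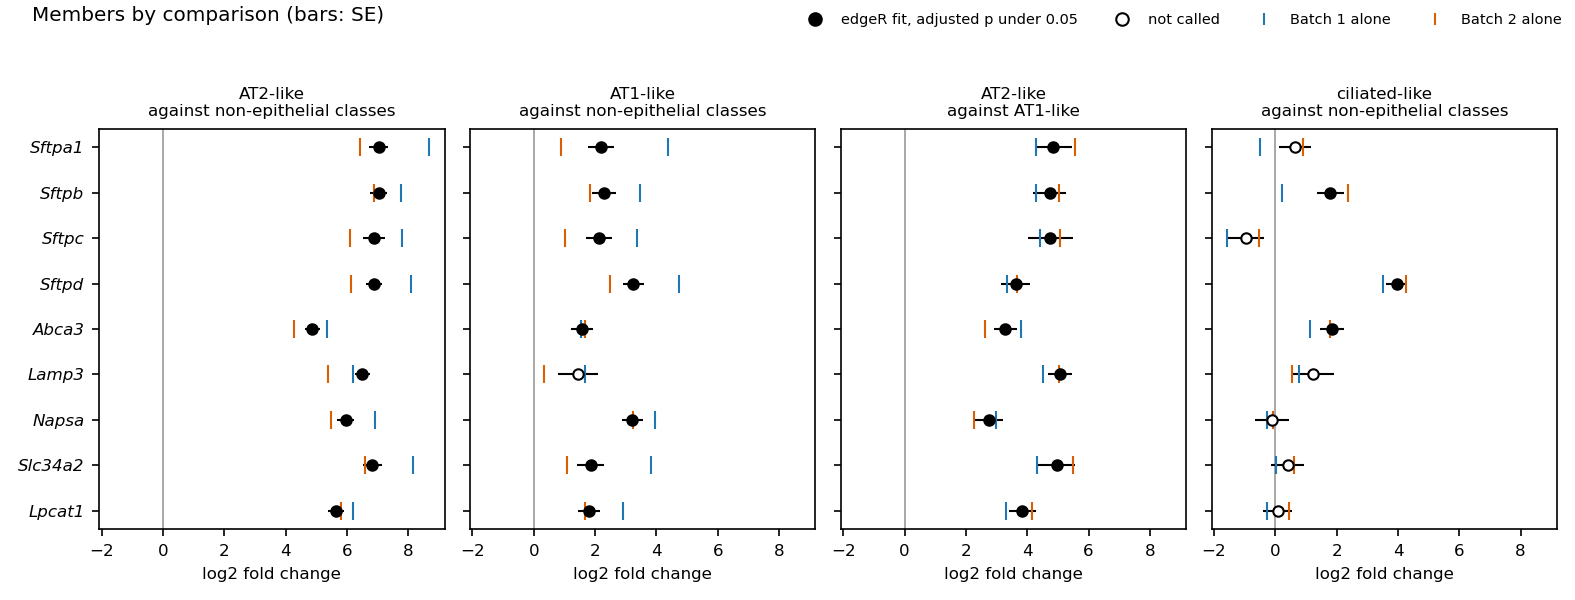
Log2 fold change of the 9 genes in 4 comparisons of edgeR sums per class and batch, with the SE as bars, filled circles for an adjusted p under 0.05 and ticks for the single batches (blue for Batch 1, orange for Batch 2). The AT2-like panel runs from 4.87 to 7.04, the AT1-like panel from 1.44 to 3.25, and in ciliated-like cells Sftpd at 3.96 stands above the other members.

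The ratio of each gene to Sftpc describes whether a class held the transcripts in the proportions of AT2-like cells of its batch. In non-epithelial cells, the ratio relative to AT2-like cells was 0.792 and 0.881 for Sftpa1, 1.02 and 0.765 for Sftpb, 0.755 and 0.983 for Sftpd and 1.02 and 0.690 for Slc34a2. These 4 genes were within a factor of 1.5 of the AT2-like proportion in both batches. Some of their intervals still lay below 1, namely those of Sftpa1 in both batches, Sftpd in Batch 1, and Sftpb and Slc34a2 in Batch 2. The ratio was 4.50 and 3.77 for Abca3, 3.13 and 1.96 for Lpcat1, 2.38 and 1.50 for Napsa and 2.04 and 1.55 for Lamp3, all above 1 with intervals that exclude it. The classes were uneven. Blood endothelial-like cells held Abca3 at 2.87 and 1.62 times and Lpcat1 at 2.06 and 1.35 times the level of the other non-epithelial cells. Matrix fibroblast-like cells held them at 0.258 and 0.373 times and at 0.545 and 0.626 times. In AT1-like cells the ratio to Sftpc, again relative to AT2-like cells, was 2.68 and 6.98 for Napsa and 2.07 and 2.65 for Sftpd. Sftpb was at 1.09 and 1.01. In club-like cells of Batch 2 it was 35.7 for Sftpd and 14.2 for Abca3, the latter from 25 UMIs.

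Outside the epithelium, the highest Napsa levels were in immune classes, with an exception in neutrophil-like cells given below. In macrophage or monocyte-like cells it was at 3.44 UMIs per 10000 in Batch 1 and 1.76 in Batch 2, from 69 and 127 UMIs. This was 13.3 times (95% interval 9.52 to 18.6) and 3.90 times (3.17 to 4.77) the level in the other non-epithelial cells. Sftpc in the same cells was at 11.3 and 11.2, against 9.39 and 11.3 in all non-epithelial cells, and in Batch 1 a single cell held 148 of its 227 UMIs. Among macrophage or monocyte-like cells with 0 UMIs of Epcam, Cdh1 and Cldn18 and no Scrublet call, Napsa was at 3.47 and 1.71. Over all cells of the class, the 1 and 3 cells with most Napsa held 7.25% and 8.66% of its UMIs. Lymphocyte-like cells held Napsa at 2.57 and 1.32, which was 6.51 and 2.48 times the other non-epithelial cells. Of the 43 and 85 cells of this class, 18 and 50 were a cluster led by Mcpt8, Gzma, Ccl5, Ppbp and Pf4. The paper lists Mcpt8 as a basophil marker, so the class is not lymphocytes alone, and Napsa was not divided by cluster. Neutrophil-like cells of Batch 2 held Napsa at 1.91, where Sftpc was also higher than in the other non-epithelial cells, at 19.9 or 1.80 times. The 8 neutrophil-like cells of Batch 1 had 0 Napsa UMIs, where 3 UMIs correspond to 1.74 per 10000. Intervals cover counting error over UMIs only.

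**Figure D5:**
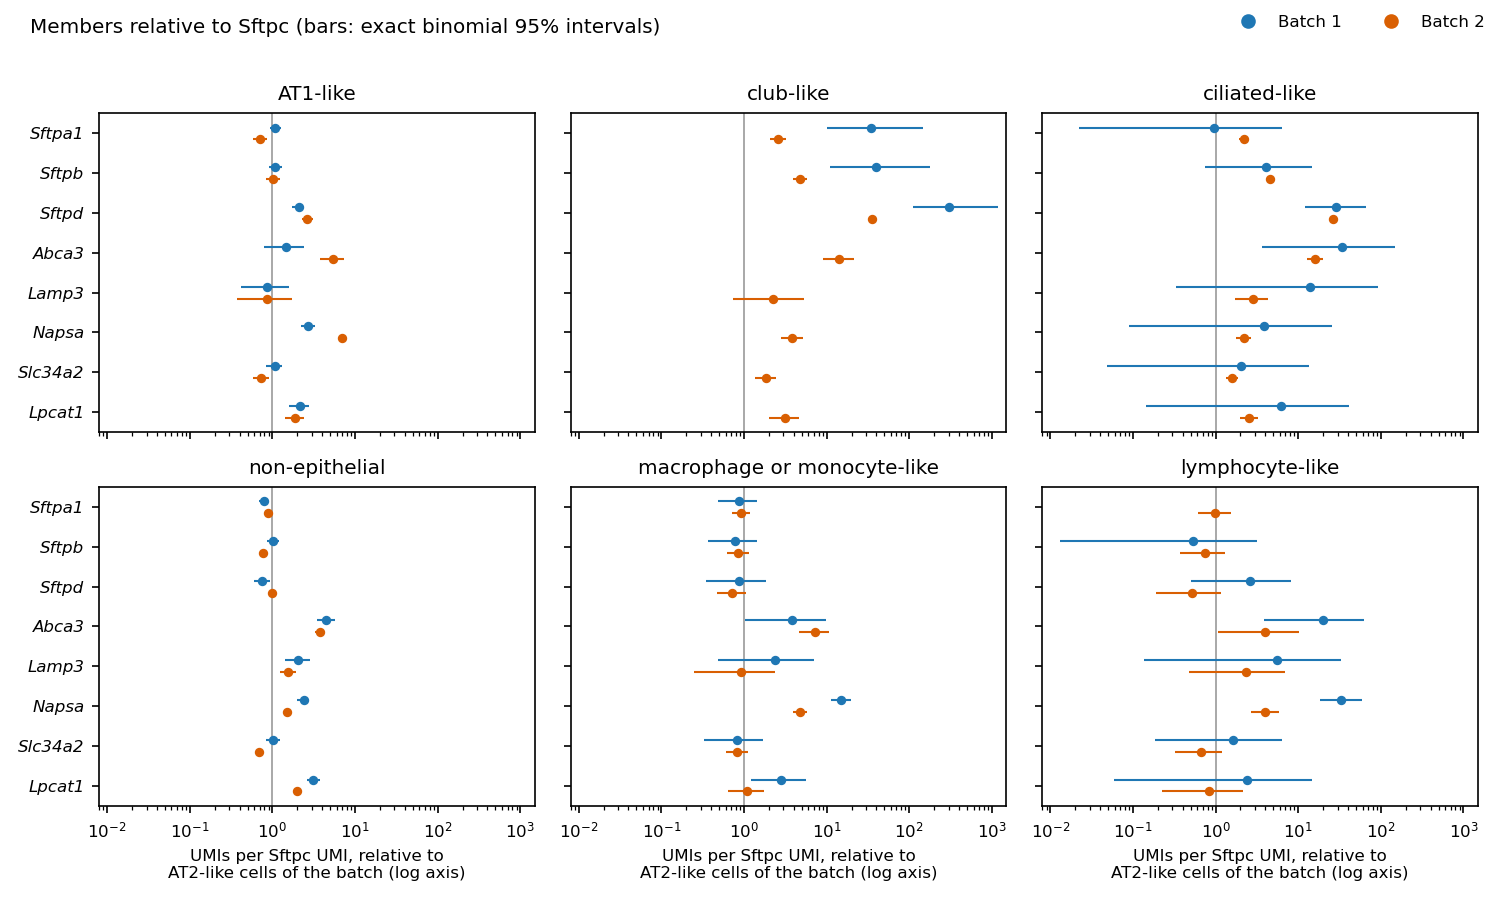
UMIs of 8 genes per Sftpc UMI in 6 classes, divided by the same ratio in AT2-like cells of the batch (log axis, exact binomial 95% intervals, Batch 1 in blue and Batch 2 in orange; classes with 0 UMIs are not drawn). Sftpd stands at 35.7 in Batch 2 club-like cells and Napsa at 15.0 and 4.81 in macrophage or monocyte-like cells. Sftpb is near 1 in AT1-like cells of both batches and in non-epithelial cells of Batch 1.

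Over the 22 sums of class and batch, the genes whose log2 level was most like the mean of the 9 members were, of 8512 genes, Lgi3 with a Pearson r of 0.979, the complement gene Hc with 0.962, the calcium binding protein S100g with 0.955, the proton pump subunit Atp6v1c2 with 0.951 and the chloride channel Cftr with 0.948. Cxcl15, Myo5c, Dram1 and Slco4c1 were also among the 10 closest, with 0.946 to 0.941. The sums of a batch share a library, and Hc, S100g, Cxcl15 and Dram1 were among the markers that named the AT2-like class. Lgi3 is the protein-coding neighbour of Sftpc, on the other strand with 6.60 kb and 0 protein-coding genes between them. Among the members, Sftpc was closest to the mean of the other 8, with an r of 0.988, and Abca3 and Napsa least close, with 0.816 and 0.848.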

How the data were processed

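Whole-lung cells of 2 mice at PND1 were profiled by Drop-seq, 1 library per batch. The authors aligned reads to mm10 with Bowtie2 2.2.7 and deposited raw UMI counts per gene and cell from Drop-seq tools, without a mitochondrial filter; use of strand in counting is not given in the sources used here. Of 2389 and 7555 barcodes, cells with at least 500 genes and at most 10% mitochondrial UMIs were kept and clustered (scanpy 1.11.5, Leiden, resolution 1.5, 2000 variable genes, 30 components) without 127 genes, namely the 9 members, the listed genes and mitochondrial and haemoglobin genes. Of 33 clusters, 4 stayed unnamed. Doublets were called by Scrublet (131 cells, 1.64%) and kept; a fit without them was an alternative. Members and lists were chosen with earlier results of these data known.

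UMI counts were summed for the 11 classes with at least 10 cells in both batches (22 sums of 38674 to 4430273 UMIs), normalized by TMM and fitted with edgeR 4.0.16 (R 4.3.3, quasi-likelihood, batch as block, Benjamini-Hochberg over all genes, threshold 0.05). With batch as block, p-values measure how far class differences varied between the 2 batches, with 1 spread estimated over the classes of the fit. Each batch is 1 library of 1 mouse, so library and mouse cannot be told apart. Sums of a batch come from the same mouse, and their deviations correlated with a median r of 0.154 over 55 pairs of classes (43 over 0.1). On simulated data for AT2-like against non-epithelial classes, 6336 of 8330 genes passed the filter. Of the changed genes among them, 45.1%, 95% and 100% were found at a log2 fold change of 1, 2 and 3. Of 6174 unchanged genes, 11 were called. Other differences between classes or batches were not simulated. Intervals are exact Poisson for levels, Wilson for shares of cells and exact binomial for ratios, at 95%. Named genes were the members, the 10 genes most like their mean (at least 50 CPM in 1 sum), and up to 3 called genes per list and direction with the largest change; results of some of these genes are not reported here. Alternatives were no block, DESeq2 1.42.0, library totals, no gene filter, only the classes compared, a 5% mitochondrial limit, clustering by batch, the authors' labels, thinning to 600 UMIs and each batch alone.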

Additional observations from a re-analysis of the deposited data

Results flagged for a closer look

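The 1940 cells of Batch 2 with over 10% mitochondrial UMIs, which enter none of the comparisons, also held the 9 transcripts, above the level in non-epithelial cells. These cells are a mix of classes that were not assigned here, and their median mitochondrial share was 12.9%. Beside all 5615 cells of Batch 2 that passed the limit, also a mix, Sftpc was at 230 against 204 UMIs per 10000, Sftpa1 at 21.2 against 19.2, Slc34a2 at 17.0 against 14.5, Sftpb at 16.2 against 14.6, Sftpd at 12.8 against 11.9, Napsa at 7.98 against 7.62, Lpcat1 at 5.48 against 4.51, Lamp3 at 1.51 against 1.13 and Abca3 at 1.24 against 1.09. The difference between the 2 mixes was not tested.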

How the results depend on the processing

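Of 466 log2 differences of members under the alternatives, 426 kept their direction and, where the alternative gave a p-value, their side of the threshold. A batch alone gave no p-value and was judged by direction only. Among the 426 were all 90 of AT2-like against non-epithelial classes and all 99 of AT2-like against AT1-like. The count of called genes was 2492 for AT2-like against non-epithelial classes and ran from 1836 (no replicate block) to 3041 (no gene filter). For AT1-like cells it was 1740 (1232 to 2015) and for ciliated-like cells 2322 (1833 to 3196) under the same alternatives. For AT2-like against AT1-like it was 1226, or 581 with no replicate block. For the AT1/AT2 class it was 3, and became 0 with no replicate block, 1 with DESeq2, 64 with no gene filter, 106 with only the classes compared, 7 with at least 5 cells per sum and 27 without the Sftpc-high AT1-like cells; the cause was not tested. Leaving out the block changed the call of no member. Sftpc in AT1-like cells turned to −0.35 without those cells and was at 0.45 once non-epithelial cells above the same limit were left out too; the first filter acts on 1 side only. In ciliated-like cells, members that were not called turned sign: Lpcat1 was at −0.0157 with DESeq2 and −0.0314 with only the classes compared, and Napsa at 0.0441 with library totals. Leaving out 1 batch moved Sftpa1 from −0.49 (without Batch 2) to 0.91 (without Batch 1) and Lpcat1 from −0.27 to 0.46. Sftpc there passed with no gene filter, at −0.98 (edgeR adjusted p 0.00807).

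Sftpc in AT2-like cells was at 1253 in Batch 1 by the authors' labels, and in Batch 2 at 760 with a 5% mitochondrial limit (detected in 100%) and 730 with batches clustered alone. Its non-epithelial level was 9.82 (clustered alone) and 7.75 (authors' labels) in Batch 1 and 12.3 (5% limit) and 13.8 (clustered alone) in Batch 2. The share of non-epithelial cells with Sftpc was 24.2% and 44.9% after thinning, 17.3% and 54.8% at 2 UMIs, and 82.3% in Batch 2 at the 5% limit. Ratios to Sftpc, relative to AT2-like cells, were also taken in cells without UMIs of Epcam, Cdh1 or Cldn18 and without Scrublet calls. They were 6.00 and 4.62 for Abca3 in non-epithelial cells and 45.2 and 5.85 for Napsa in macrophage or monocyte-like cells. In all non-epithelial cells of Batch 2, the ratio of Abca3 was 4.93 against Sftpb.

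Clustered alone, Batch 1 gave no AT2-like cluster, so the AT2 comparisons had no value there. The airway values rest on 9 ciliated-like and 4 club-like cells in Batch 1, with 1 library per mouse.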

Other observations

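Of the 4 clusters that the markers did not name, 2 held the surfactant genes at a high level. A cluster of 6 and 23 cells, led by Areg, Cth and Cers6, held Sftpc at 687 and 354 UMIs per 10000, and Scrublet called 5 and 22 of its cells as doublets. Another, with 22 cells in Batch 2, held Sftpc at 527, Slc34a2 at 40.3, Napsa at 18.9 and Lpcat1 at 13.9, with 1 Scrublet call. Its leading genes were unnamed gene models such as Gm21738 and Gm26870.

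Sftpc in AT2-like cells of Batch 2 was at 809 UMIs per 10000 in cells of 1000 to 1500 UMIs, 869 and 845 in the next bins and 648 in cells of at least 5000 UMIs, so the deepest cells held the lowest share. In the AT1/AT2 class of Batch 2 the order was 261, 428, 529 and 428.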
